A study of Rattus norvegicus with 6 samples.

Results

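The loci described here lie on the proximal part of rat chromosome 19, with starts from 551671 to 19921177 on the genome build rn6. They are the 155 rows of the authors' gene table that start inside this window and were tested by the authors, out of 856 tested rows on chromosome 19 and 26459 in all. The window was chosen by measured values: its edges had been set from the ratios of knockout (KO) over wild type (WT) in this same table, so the lower level of the window in KO cells is what chose it. All ratios of KO over WT below are therefore descriptions, given with no test of their own.

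RUCA-I is an epithelial cell line from an endometrial adenocarcinoma of the Lewis rat strain. RNA of untreated cells was sequenced from 3 batches of WT cells and 3 independently made miR-203 -/- lines. KO and WT samples therefore also differ in how the cells were derived, which cannot be told apart from the loss of the microRNA. The table holds 1 FPKM value (fragments scaled to transcript length and library size) per group, and a level therefore has no SD or n, and the depth of the samples is unknown. The authors' own Cuffdiff test is the only one that saw the single samples. In such bulk RNA, fewer cells of a type and less RNA per cell cannot be told apart.

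Epithelial markers fitted the label of the cells. Of 7 fixed epithelial markers 6 had a tested row, with a summed level of 1249 FPKM (WT) and 1232 FPKM (KO). Of 5 uterine markers 4 were measured (145 and 132 FPKM in sum). No leukocyte or endothelial marker of 4 each had a tested row under its symbol. Col1a1 was the one fibroblast marker measured, at 1.43 and 1.17 FPKM, and Myh11 the one smooth muscle marker, at 1.20 and 2.80 FPKM.

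Genes that lie beside each other on a chromosome share a stretch of chromatin and can share regulatory elements, and expression read along a chromosome sets each gene beside its neighbours. Chromosome 19 of the rat carries in this window several well known gene neighbourhoods. These include the metallothioneins, which bind zinc and other metals, the chemokine-like CMTM family, the carboxylesterases, and the Iroquois genes Irx3 and Irx5 beside Fto. MicroRNAs such as miR-203 act in another way, by pairing of their seed with sites in messenger RNAs, irrespective of where the genes lie. The microRNA missing from the KO lines is shown first because it defines the groups, with its seed (bases 2 to 8) in capitals. The promoters that follow belong to 2 members that were lower in KO cells and to 1 that was nearly level. They cover 250 bases before to 50 bases after the start of the gene, and both they and the microRNA come from RefSeq (build GRCr8, whose positions differ from those of rn6).
rno-miR-203a-3p (GRCr8, chr6:137020756-137020777, plus strand): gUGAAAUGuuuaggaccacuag
Fam96b, now Ciao2b (GRCr8, chr19:350403-350702, plus strand): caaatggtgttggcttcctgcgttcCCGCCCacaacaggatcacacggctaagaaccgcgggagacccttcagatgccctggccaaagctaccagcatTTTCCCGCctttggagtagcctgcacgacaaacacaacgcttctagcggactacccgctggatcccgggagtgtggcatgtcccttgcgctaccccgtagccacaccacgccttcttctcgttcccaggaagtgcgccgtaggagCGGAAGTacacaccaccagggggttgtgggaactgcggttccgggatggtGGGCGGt
Tk2 (GRCr8, chr19:715071-715370, plus strand): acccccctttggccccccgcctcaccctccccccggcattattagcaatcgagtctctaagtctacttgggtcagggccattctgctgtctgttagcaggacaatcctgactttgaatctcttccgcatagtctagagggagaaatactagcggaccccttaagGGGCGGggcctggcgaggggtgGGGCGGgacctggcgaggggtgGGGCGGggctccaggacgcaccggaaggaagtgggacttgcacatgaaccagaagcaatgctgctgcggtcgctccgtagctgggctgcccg
Mt2A (GRCr8, chr19:10838659-10838958, minus strand): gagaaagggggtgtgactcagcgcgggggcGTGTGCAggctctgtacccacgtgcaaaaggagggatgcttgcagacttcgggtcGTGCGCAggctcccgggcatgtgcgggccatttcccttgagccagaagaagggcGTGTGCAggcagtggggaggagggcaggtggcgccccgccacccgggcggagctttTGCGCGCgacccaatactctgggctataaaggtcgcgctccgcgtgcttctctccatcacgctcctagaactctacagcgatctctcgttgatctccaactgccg

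Capitals in the promoters of Fam96b and Tk2 mark the GC box (GGGCGG), the ETS motif (CGGAAGT) and the E2F motif (TTTCCCGC or TTTGGCGC), searched on both strands. Capitals in the promoter of Mt2A mark the metal response element (TGCGCNC or TGCACNC, both strands), of which it holds 4. A match is a description of letters and not a shown site of binding.

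Promoters of 49 member genes were in the RefSeq table, 64 in all since a gene can have several. Their median GC content was 60.7%, against 64.0% for 235 promoters of the rest of chromosome 19 and 60.7% for 9758 promoters of genes with a tested row. A GC box stood in 54.7% of them, against 68.9% on the rest of the chromosome, 61.5% of genes with a tested row and 33.1% of all 33469 promoters. The ETS motif stood in 5 of the 64 (7.81%), against 17.9%, 13.8% and 6.32%. Metal response elements stood in 28.1%, against 38.3%, 35.7% and 24.2%. The E2F motif stood in 3 of the 64 (4.69%), against 2.55%, 3.06% and 1.45%. The NRF1 motif, searched as well, stood in 4 of the 64 (6.25%), against 15.7%, 10.3% and 4.25%. The member promoters thus held GC boxes, ETS and NRF1 motifs and metal response elements less often than the rest of chromosome 19. The E2F motif went the other way. The 64 promoters come from 49 genes and the 235 from 219, so genes with several promoters weigh more among the members. No test was made of these differences.

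The rows of the window are not 155 separate genes. They fall on 108 distinct loci, since 69 rows share a locus with another member, and 110 rows carry 73 distinct symbols while 45 have none. No member was at 0 in either group. In the window 54 rows had a mean under 1 FPKM, 101 at least 1 and 68 at least 5 FPKM. The share with at least 5 FPKM (43.9%) was near that of all tested rows (42.7%), and the median locus was 16874 bp long against 14344 bp. Members with at least 5 FPKM had a median WT level of 27.5 FPKM, against 19.6 on the rest of chromosome 19 and 19.5 over all tested rows. Expressed members thus had a somewhat higher WT level, and the WT value is one of the 2 that the choice of the window used.

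Over all 155 rows the log2 ratio had a median of −0.079, with quartiles of −0.27 and 0.27, and 95 rows (61.3%) were lower in KO cells. On the rest of chromosome 19 the median over 701 rows was 0.051 and 40.7% were lower. All tested rows above 0 in both groups had a median of 0.023, with 46.3% lower. The window lay 0.13 below the rest of its chromosome on the log2 scale, a gap that no change of overall scaling can alter. Scaling both groups to the same FPKM sum would lower every log2 ratio by 0.16, or by 0.073 with the sum over loci of at least 300 bp. A shift of 0.16 turns some directions given below as slightly higher in KO cells. Among the 49 members taken by the naming rule these are Cklf, 1 row of Slc38a7, Mt2A, AABR07042866.1, Ces1a, Mmp2, Irx3 and Aktip. Of these only Mt2A (0.039) and Aktip (0.066) had a log2 ratio smaller than 0.073. Outside the window the shift of 0.16 also turns rows counted or given as higher. Among them are Mt1 (0.083), Cmtm6 (0.0053), Siah1 (0.091) and the row of 546 bp before the window.

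The ratio depended on the level of the row. Among the 54 members under 1 FPKM the median was 0.27, and 32 of them were higher in KO cells. Such rows leaned the same way elsewhere, with medians of 0.18 on the rest of chromosome 19 and 0.15 on the other chromosomes. From 1 to 5 FPKM the median of 33 members was −0.035, where the rest of the chromosome had 0.096. From 5 to 20 FPKM it was −0.19 over 31 members (24 lower) against 0.039. At 20 FPKM and over it was −0.10 over 37 members (30 lower) against −0.0047. The lower level of the window thus stood in its expressed rows and not in its faintest ones.

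**Figure D1:**
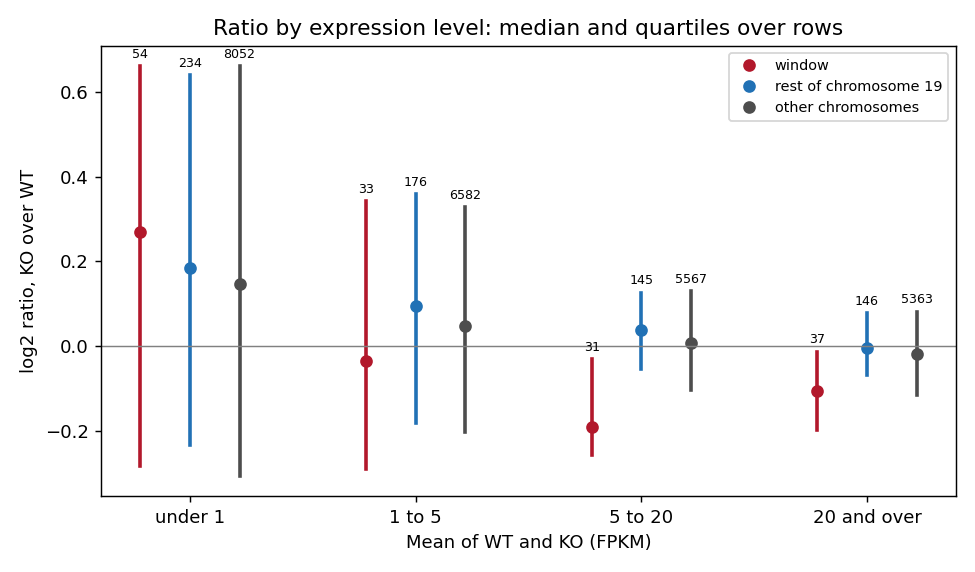
Log2 ratio of KO over WT (vertical axis) by mean FPKM class (horizontal axis) for the window, the rest of chromosome 19 and the other chromosomes; points are medians, bars run between the quartiles over rows, and the numbers count rows. Window medians are −0.19 at 5 to 20 FPKM and −0.10 at 20 FPKM and over, while the faintest class lies above 0 in each set.

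Among the 68 members with at least 5 FPKM, 54 (79.4%) were lower in KO cells, with a median log2 ratio of −0.14, a decrease of the median by 9.47%. The rest of chromosome 19 had a median of 0.016 over 291 rows, with 44.0% lower. Medians of the 21 whole chromosomes ran from −0.04 (chromosome 2) to 0.051 (chromosome 3), so the window lay below each of them. Whole chromosomes average many more rows than the window, and their range is not a measure of how much windows of this size vary. Summed over loci of at least 300 bp, members gave 2327 FPKM in WT and 2113 in KO cells, while the rest of chromosome 19 gave 12079 and 12305.

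**Figure D2:**
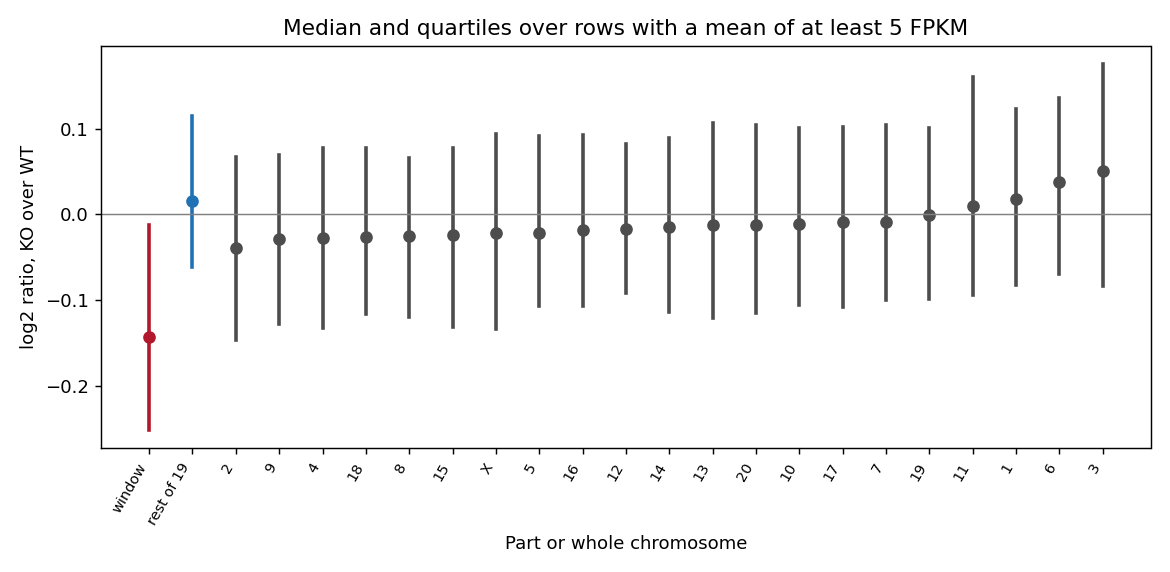
Median (point) and quartiles (bar) of the log2 ratio of KO over WT over rows with at least 5 FPKM, for the window, the rest of chromosome 19 and each whole chromosome in order of its median. The window stands at −0.14 and the chromosomes between −0.04 and 0.051.

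Few members passed the authors' test. At q under 0.05 the authors' deposited table called 3 of the 155 members (1.94%), 2 lower and 1 higher, where it called 1.05% of all tested rows. Lower calls were 0.556% and higher calls 0.491% of all tested rows. At an unadjusted p under 0.05 in the authors' deposited table stood 14 members that were lower and 4 that were higher. Over all tested rows 2.75% stood under that p and were lower, and 3.25% were higher. These tests come from the contrast that chose the window, so nothing is read from the difference in shares.

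Cdh16 encodes a cadherin known from kidney tubules, a cell adhesion protein of epithelium (chromosome 19, 568101 to 592482). Among named members over 300 bp only Mt2A had a higher mean. Cdh16 fell from 163 FPKM in WT to 116 in KO cells, a log2 ratio of −0.50 (by the authors' deposited table, q = 0.00756). Hmox1 encodes heme oxygenase, the stress-induced enzyme that breaks down heme (14508524 to 14515497). It fell from 59.3 to 44.2 FPKM, a log2 ratio of −0.42 (by the authors' deposited table, q = 0.031). The third call was a row without a symbol (10300979 to 10305278), which rose from 0.633 to 1.22 FPKM, a log2 ratio of 0.95 (by the authors' deposited table, q = 0.00756). It is the only call with a mean under 1 FPKM.

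Genes at the start of the window stood among the lowest ratios. Fam96b, a factor that hands iron-sulfur clusters to cytosolic and nuclear proteins (551671 to 553924), measured 29.8 FPKM in WT against 22.03 in KO cells (by the authors' deposited table, p = 0.00165 and q = 0.118). Rrad, a small Ras-like GTPase, stood at 2.36 and 1.34 FPKM. The main row of Nae1, a subunit of the enzyme that activates the ubiquitin-like protein NEDD8 (653518 to 680638), stood at 80.1 and 45.8 FPKM. This was a log2 ratio of −0.81, yet p was 0.166 in the authors' deposited table, and the row was not called. A faint second row of Nae1 at the same locus pointed the other way, at 0.385 and 0.805 FPKM.

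Further genes before 1 Mb were lower by less. Dync1li2, a light intermediate chain of the dynein motor (740077 to 763149), stood at 29.6 and 24.1 FPKM. Tk2, the mitochondrial thymidine kinase, stood at 9.11 and 7.04 FPKM. Pdp2, a phosphatase of pyruvate dehydrogenase, had 2 rows, at 10.7 and 8.43 FPKM and at 5.75 and 4.70 FPKM. None of these passed at q under 0.05. Of 14 members before 1 Mb 12 were lower, with a median log2 ratio of −0.36, and of the 10 with at least 5 FPKM 9 were lower. The exception among the 10 was Cklf, the founding member of the CMTM family, at 4.94 and 5.29 FPKM.

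The CMTM genes gave no common direction. Cmtm4, a membrane protein of the family (784616 to 830311), measured 36.9 FPKM in WT against 33.4 in KO cells, beside Cklf as given above. Elsewhere in the genome 3 relatives were measured. Cmtm6, Cmtm7 and Cmtm8 stood at 49.7, 8.91 and 19.7 FPKM in WT cells and at 49.9, 8.37 and 18.9 FPKM in KO cells. None of the 5 was called in the authors' deposited table.

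Between 1 and 9 Mb the table lists 4 members, all without a symbol and between 102 and 188 bp long. FPKM is unreliable at such lengths. The one from 5842252 to 5842353 has the highest value of the window (WT 2344 and KO 2301 FPKM). With 2 more highly listed short rows, at 896861 to 896967 (411 and 354 FPKM) and 4109701 to 4109827 (216 and 214 FPKM), these rows would dominate any sum, which is why sums above leave out loci under 300 bp. AABR07042875.1, of 81 bp, was listed at 1006 and 1442 FPKM.

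**Figure D3:**
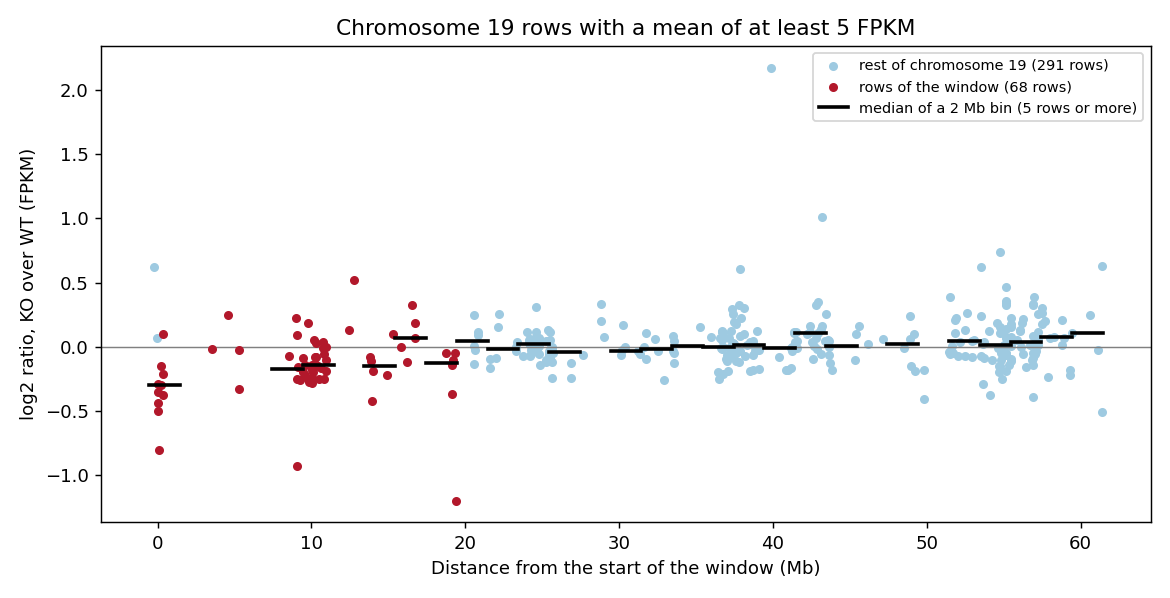
Log2 ratio of KO over WT (vertical axis) of chromosome 19 rows with at least 5 FPKM against the distance from the start of the window in Mb; red points are the 68 rows of the window, blue points the other 291, and black lines medians of 2 Mb bins with at least 5 rows. The first bin stands at −0.29 and the bins beyond the window between −0.04 and 0.11.

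Most expressed members lie between 9 and 12 Mb, where 29 of 35 rows with at least 5 FPKM were lower and the median log2 ratio was −0.15. In the fixed 2 Mb bins along the chromosome, medians were −0.29 for the first (12 rows, of which 2 precede the window), −0.18 from 8 Mb (8 rows) and −0.14 from 10 Mb (27 rows). They were −0.15 from 14 Mb (6 rows), 0.066 from 16 Mb (5 rows) and −0.12 from 18 Mb (6 rows, all lower). The sparse bins stood at −0.020 from 4 Mb (4 rows) and 0.33 from 12 Mb (2 rows). Beyond the window, 18 bins with at least 5 rows had medians from −0.04 to 0.11. The sparse bins there stood at 0.14 from 28 Mb (4 rows), 0.061 from 46 Mb (3 rows) and −0.18 from 50 Mb (3 rows, all lower). The bin medians of the window were thus uneven, lowest in the first bin and above 0 in 2 of 8 bins.

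Function lists are read against the window itself, where 72.3% of the 101 members with at least 1 FPKM were lower, with a median log2 ratio of −0.12, and against 48.9% of all tested rows at that level. Since the window was chosen for low ratios, a low list is not a result about its genes. Of the 17 symbols in the list of metabolism and mitochondria, where Fam96b and Ciao2b name 1 gene, 8 had a row in the window. All 8 were lower in KO cells, none was called, and the median log2 ratio was −0.32. Ciapin1, a factor of cytosolic iron-sulfur cluster assembly (10596995 to 10610082), measured 57.7 FPKM in WT against 50.9 in KO cells. Its neighbour Coq9, needed for coenzyme Q synthesis, stood at 35.7 and 32.3 FPKM. Got2, the mitochondrial aspartate aminotransferase, had its main row at 3.74 and 3.07 FPKM. Slc38a7, a glutamine transporter, had 3 rows at 1 locus, at 12.9 and 10.8, 7.83 and 4.13, and 5.81 and 6.18 FPKM, so the split of its reads is uncertain. Of 2 listed genes outside the window with at least 1 FPKM, 1 was lower and 1 higher.

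Of the 17 symbols listed for chromatin and transcription, 11 had a row in the window. All 11 were lower, with none called and a median log2 ratio of −0.14. Brd7, a bromodomain subunit of a chromatin remodelling complex (19672808 to 19701660), measured 66.8 FPKM in WT against 60.5 in KO cells. Cnot1, the scaffold of the CCR4-NOT deadenylase that microRNA complexes recruit (9666987 to 9765478), stood at 55.0 and 49.4 FPKM. Fto, an RNA demethylase (16772745 to 17115145), stood at 28.4 and 26.2 FPKM. Polr2c, a subunit of RNA polymerase II, stood at 15.1 and 12.8 FPKM. Of the 4 listed genes outside the window, N4bp1 and Siah1 among them, 3 were higher.

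Of the cell cycle list 5 of 9 genes lay in the window, 3 lower and 2 higher, none called, and the 3 measured outside the window were lower too (median log2 ratio −0.17). Csnk2a2, a catalytic subunit of casein kinase II (9972547 to 10012037), measured 83.1 FPKM in WT against 72.5 in KO cells. Gins3, part of the GINS complex of the replication fork, stood at 17.8 and 14.8 FPKM. Kifc3, a kinesin that walks to microtubule minus ends (10305515 to 10339188), was higher, at 67.8 and 77.2 FPKM. Rbl2, the pocket protein p130, was higher as well, at 8.01 and 9.09 FPKM. Mcm5, a subunit of the replicative helicase outside the list (14523538 to 14561333), stood at 131 and 115 FPKM.

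Kifc3 adjoins a stretch of mostly faint rows that were higher in KO cells. The 6 rows without a symbol from 10277074 to 10305278, which end just before Kifc3, were all higher in KO cells, with log2 ratios from 0.44 to 2.99 and means from 0.282 to 4.87 FPKM. The called row of 0.633 and 1.22 FPKM is one of them, and the most expressed one stood at 4.14 and 5.60 FPKM. A second stretch of this kind is the locus from 9563727 to 9582069, where 8 of 9 rows, all but AABR07042802.1 without a symbol, were higher. Means there ran from 0.390 to 6.41 FPKM. Members under 1 FPKM leaned the same way in the whole window, with 32 of 54 higher and a median log2 ratio of 0.27. All tested rows of that level had a median of 0.15. Rows of 1 locus share reads and are not independent. The 2 stretches were picked after their values were seen.

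Of the 13 genes listed for protein folding, trafficking and the endoplasmic reticulum, 10 were in the window, 7 lower and 3 higher, none called, with the median log2 ratio of the window (−0.12). The 2 measured outside it were both lower, with a median of −0.11. Nup93, a scaffold of the nuclear pore (11159767 to 11264005), measured 102 FPKM in WT against 91.6 in KO cells. Herpud1, a protein of the endoplasmic reticulum induced by unfolded proteins, stood at 40.6 and 34.1 FPKM. Arl2bp stood at 50.5 and 47.9 FPKM. Aktip, a partner of the AKT kinase, stood at 38.7 and 40.5 FPKM. Rpgrip1l, a protein of the ciliary transition zone, stood at 10.1 and 12.6 FPKM.

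**Figure D4:**
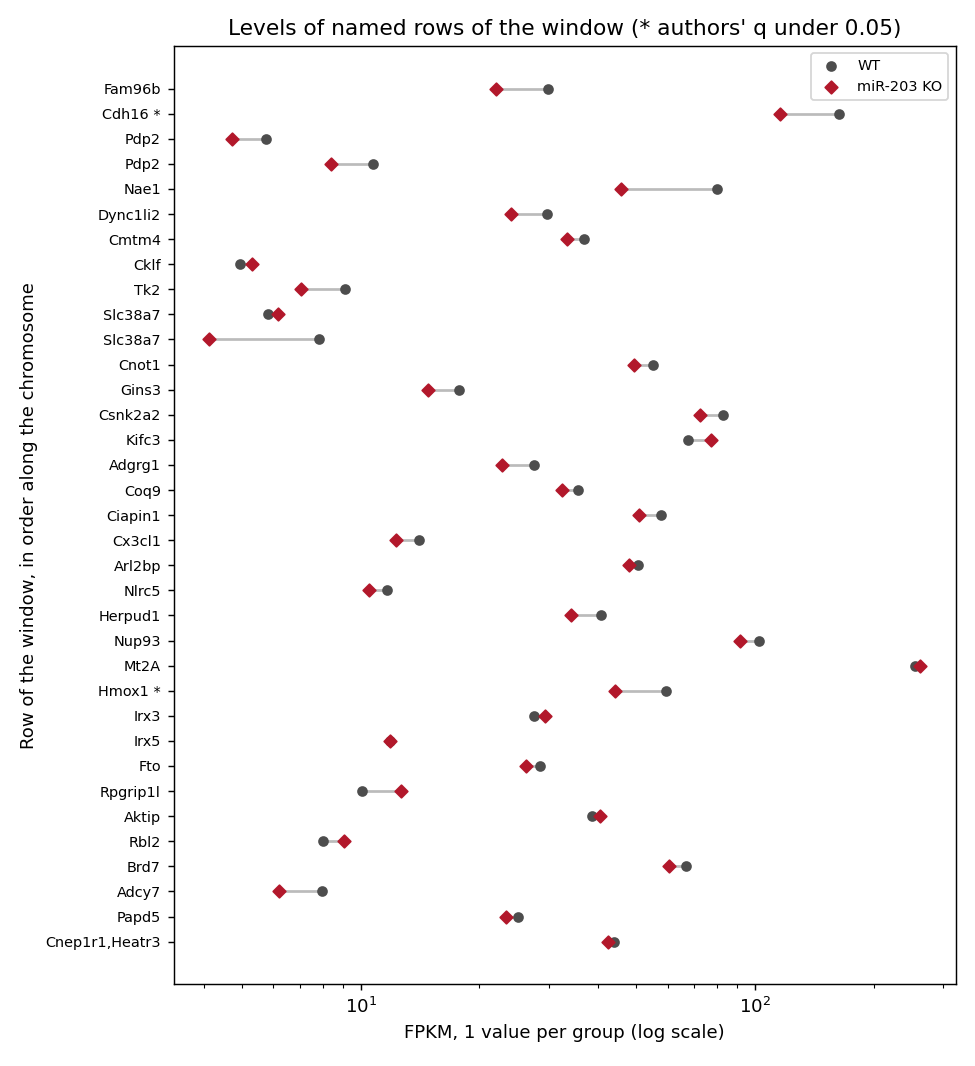
FPKM in WT (grey circles) and miR-203 KO cells (red diamonds) on a log axis for named rows of the window with at least 5 FPKM, in order along the chromosome, with 1 value per group and a star at calls of the authors. KO values lie to the left of WT for most rows, farthest for Nae1 and 1 row of Slc38a7, and to the right for Kifc3, Rpgrip1l and Rbl2.

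Of 9 listed genes for cadherins, adhesion receptors and matrix metalloproteinases 3 had a row in the window, and the 2 with at least 1 FPKM were lower. Beside Cdh16, the adhesion receptor Adgrg1 (10423462 to 10460702) measured 27.5 FPKM in WT against 22.8 in KO cells (by the authors' deposited table, p = 0.0186 and q = 0.575). Mmp2, a matrix metalloproteinase of stromal cells, was near the floor, at 0.884 and 0.96 FPKM. Cx3cl1, the membrane-bound chemokine fractalkine and the 1 measured of 3 chemokines, stood at 14.1 and 12.3 FPKM. Nlrc5, the activator of MHC class I genes and part of the list of innate sensing, stood at 11.6 and 10.5 FPKM at its longest locus. Neither of these 2 was called. Adcy7, an adenylyl cyclase in none of the lists, stood at 7.97 and 6.19 FPKM.

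Mt2A, the most highly expressed named member longer than 300 bp, hardly differed between groups (11307897 to 11309139). Its level was 255 FPKM in WT against 262 in KO cells, a log2 ratio of 0.039 (by the authors' deposited table, q = 0.997). Metallothioneins are closely alike in sequence, which makes single values uncertain. Mt1 on chromosome 17 stood at 52.5 and 55.6 FPKM and Mt1m on chromosome 20 at 1147 and 1075 FPKM, and neither was called. Of 11 measured zinc handling genes elsewhere in the genome 10 were lower, with a median log2 ratio of −0.20, where 48.9% of all tested rows of at least 1 FPKM were lower. One of the 10, Slc39a1, was level at 27.3 FPKM in both groups. One of the 11 was called, where 0.556% of all tested rows were called lower. It was the zinc importer Slc39a4, which fell from 3.43 to 0.986 FPKM (by the authors' deposited table, q = 0.00756).

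Of the Iroquois genes and other developmental factors 2 of 9 had a row in the window, and both were near level. Irx3, an Iroquois homeobox factor (15838523 to 15842133), measured 27.4 FPKM in WT against 29.4 in KO cells, and Irx5 (16393264 to 16415889) stood at 11.9 FPKM in both. Carboxylesterases were faint: Ces1a stood at 1.66 and 1.80 FPKM and Ces1f at 1.05 and 0.865. Ces5a, with a row of only 228 bp, stood at 1.54 and 6.35 FPKM (by the authors' deposited table, q = 0.764). Cyld, a deubiquitinase that restrains NF-kB, had its main row at 34.2 and 33.2 FPKM. For that row alone among the members, the authors' deposited table gives a log2 fold (0.11) that differs by over 0.01 from the ratio of its FPKM values (−0.044), and in direction too.

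At the edges of the window the values were as follows. The 2 tested rows before its start have no named function and were higher, AABR07042611.1 at 18.1 and 27.8 FPKM and a row of 546 bp at 539 and 566. The last 4 members with at least 5 FPKM were Adcy7 as given above, Papd5, a poly(A) polymerase (25.0 and 23.3 FPKM), the row shared by Cnep1r1 and Heatr3 (43.9 and 42.4), and a row of 206 bp without a symbol (17.9 and 7.83). The first 4 rows beyond were 3 short rows without a symbol (168 and 200, 338 and 339, 54.9 and 50.04 FPKM) and N4bp1 (25.4 and 25.0). Over the last 20 such rows inside, the median log2 ratio was −0.091, and over the first 20 outside it was 0.023.

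The order of the genes was compared with the RefSeq table of the newer assembly GRCr8, which the choice of the window did not use. Of the 73 member symbols 65 were matched, all on chromosome 19. None of the 267 other matched symbols of the chromosome lay among them in GRCr8. In rn6 this holds by the rule that set the window. The match thus describes how gene order was kept between the builds and is no support for the window. Along the 65 matched members 1 pair of neighbours was in the reverse order. Between Mcm5 and Ces1a the newer table lists 462 genes, 296 of them protein coding, of which 1 has a tested row under its symbol, while the deposited table has 5 rows between them. Up to Mcm5, 45 of 55 members with at least 5 FPKM were lower, with a median log2 ratio of −0.15. From Ces1a on, 9 of 13 were lower, with a median of −0.051. The difference between both sides was not tested.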

How the data were processed

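Per the submitters' processing notes, the build was rn6 and the tools Cuffdiff 2.2.1.3, Cufflinks 2.2.1 and TopHat, listed there as 0.9. No source used here names the annotation. Per the labels, libraries kept strand (dUTP method). The authors deposited 1 FPKM per group, pooling 3 samples, with their log2 fold, a test statistic (a score, not used here), p-value and q-value. FPKM keeps no depth, is unstable for short loci, and depends on how reads were split between rows of 1 locus.

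Here the ratio of KO over WT was taken for rows above 0 in both groups and summarised by counts, medians and quartiles. The design had foreseen limma if values per sample were found, and there were none, so no test was run. Members and gene lists were chosen with earlier results of these data known. Named rows are the authors' calls, the 10 lowest and 10 highest ratios among named rows of at least 5 FPKM, the 6 highest means, 4 rows at each side of the distal edge, and up to 4 per list by mean, a repeated symbol by its longest locus. Rrad, Mcm5, Got2, Polr2c, N4bp1, Siah1, the main row of Cyld, further rows of Nae1 and Slc38a7, the short rows between 1 and 9 Mb, the rows before the window, rows of the unnamed stretches, and zinc, metallothionein and CMTM genes elsewhere were named after their values were seen. The code of the median summary was run on shuffled ratios of the table with known shifts added. A median must move by such a shift, so this checks the code and says nothing about the data. Symbols were matched to RefSeq (GRCr8) by symbol or synonym. Python 3.11.15, pandas 2.3.3, NumPy 2.4.6, SciPy 1.17.1 and matplotlib 3.10.9 were used. Some members are not reported here by name.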

Additional observations from a re-analysis of the deposited data

How the results depend on the processing

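The median log2 ratio of the members (−0.079) stayed below 0 under all 16 alternatives, from −0.24 to −0.058, and lay below the rest of chromosome 19 in each by 0.098 to 0.16. These shifts follow from which rows each setting keeps or how it scales them. The window was chosen for low ratios in these same values, so this is a description and no support. Settings that only rescale cannot alter the gap to the rest. The window widened by 1 Mb at the distal edge gained no row. With at least 1, 5 or 10 FPKM the share of members lower in KO cells was 72.3%, 79.4% and 82.4%, with medians of −0.14 at 5 FPKM for members and 0.016 and 0.0061 at 5 and 10 FPKM for the rest. The longest locus of each symbol gave 73.6% and a median of the rest of 0.019. With the same FPKM sum, medians were −0.24 and, for the rest, −0.11, with 70.3% lower, and over loci of at least 300 bp −0.15 and −0.023. That scaling over long loci, the highest row of each locus (median −0.12) and leaving out members before 1 Mb (−0.058) were chosen after seeing the data. No member was called by Cuffdiff at q under 0.05 with a fold of at least 2, and 2 or 3 were called under the other rules. Shares of all tested rows under these alternative rules were not computed, so nothing is read from the counts. At an unadjusted p under 0.05 in the authors' deposited table, with no limit on the fold, stood 18 members. Over all tested rows 2.75% stood under that p and were lower, and 3.25% were higher. Of 49 members taken by the naming rule, 8 changed sign with the same FPKM sum and none under the other 3 settings, and none of the 8 was called.

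No paired analysis was possible because each group has a single pooled value. Replicates could not be left out either, and what depth limits is unknown.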
